A study of Zea mays with 14 samples.

Results

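Nitrate uptake and nitrite reduction are described here through 6 maize genes, out of 39305 gene IDs in the deposited count files. They were chosen by ID, as a nitrite reductase gene (NIR, GRMZM2G079381), a gene for the siroheme of that enzyme (sum1, GRMZM2G105604), 2 NRT2-type nitrate transporter genes (nrt2.1, GRMZM2G010280, and nrt2.2, GRMZM2G010251) and 2 nitrate reductase genes (NNR1, GRMZM2G568636, and GRMZM2G428027). All 6 IDs were present in the files, and names for 5 of them were found in RefSeq's list of maize genes (assembly Zm-B73-REFERENCE-NAM-5.0). GRMZM2G428027 has no entry there, so its role is only as listed. The genes were chosen with results of these data in view, since the levels of NIR and sum1 in zmlrl5 and wild type root hair of W22 were already known. Values of that comparison are therefore given as a description, without a test of the 6 genes. Calls of other genes in it are given as a description too. How far the choice also drew on the other comparisons is not known here, so their p-values may not be independent of that choice.

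Messenger RNA came from maize seedlings aged 3 days and was sequenced in 14 libraries, 2 in each of 7 groups. One set of 6 libraries holds root hair, root stripped of its hairs and aerial seedling of the inbred line B73, all labelled wild type. A second set of 8 holds zmlrl5 and wild type root hair labelled W22, another inbred line, and zmlrl5 and wild type root labelled B73. By label the W22 mutant is a knock down and the B73 mutant a knock out, and the sources used here do not say how either was made or from how many plants a library came. Titles state that hairs had been scraped from the wild type root of the second set and are silent on this for the zmlrl5 root, although the treatment protocol, the same for every library, describes roots without hairs. The growth protocol names B73 for every library, so W22 rests on the label for cultivar. No ID is named for zmlrl5 in the table of names, so the targeted gene is not analysed here and did not check the labels.

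Plants bring nitrate into root cells partly through high-affinity carriers of the NRT2 family, which work with a small partner protein called NAR2. Nitrate reductase, an enzyme with a molybdenum cofactor, turns nitrate into nitrite in the cytosol. In plastids nitrite reductase then turns nitrite into ammonium, using electrons from ferredoxin and an iron-containing cofactor, siroheme, that plants make from uroporphyrinogen through a methyltransferase. Glutamine synthetase takes up the ammonium. Root hairs are outgrowths of single epidermal cells that enlarge the surface through which roots take up ions.

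Total counts ran from 12336633 to 27788359 per library. Levels are given as CPM, read counts relative to a library size scaled by TMM (trimmed mean of M-values, which evens out differences in composition). The summed level of 4 roothairless genes (rth1, rth3, rth5 and rth6), whose mutants have short or missing hairs, was 1580 and 1150 CPM in B73 root hair, against 82.4 and 95 CPM in B73 root. It was 67.9 and 48 CPM in aerial seedling, so the sum was highest where the label says root hair. rth1 by itself differed little, at 30.6 CPM in B73 root hair and 25.6 CPM in B73 root. In the second set it averaged 14.8 CPM in W22 wild type root hair and 17.6 CPM in W22 zmlrl5 root hair, below the 23.9 CPM of B73 wild type root. 7 genes of dividing cells summed to 57.6 and 69.7 CPM in B73 root hair, against 1430 and 1150 CPM in B73 root. The root cap gene RCP1 stood at 0.491 and 0.4 CPM in B73 wild type root of the second set, against 83.2 and 78.8 CPM in B73 root of the first, so root groups with the same line label differed in that marker. In bulk tissue, fewer cells of a type and less RNA per cell cannot be told apart.

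**Figure D1:**
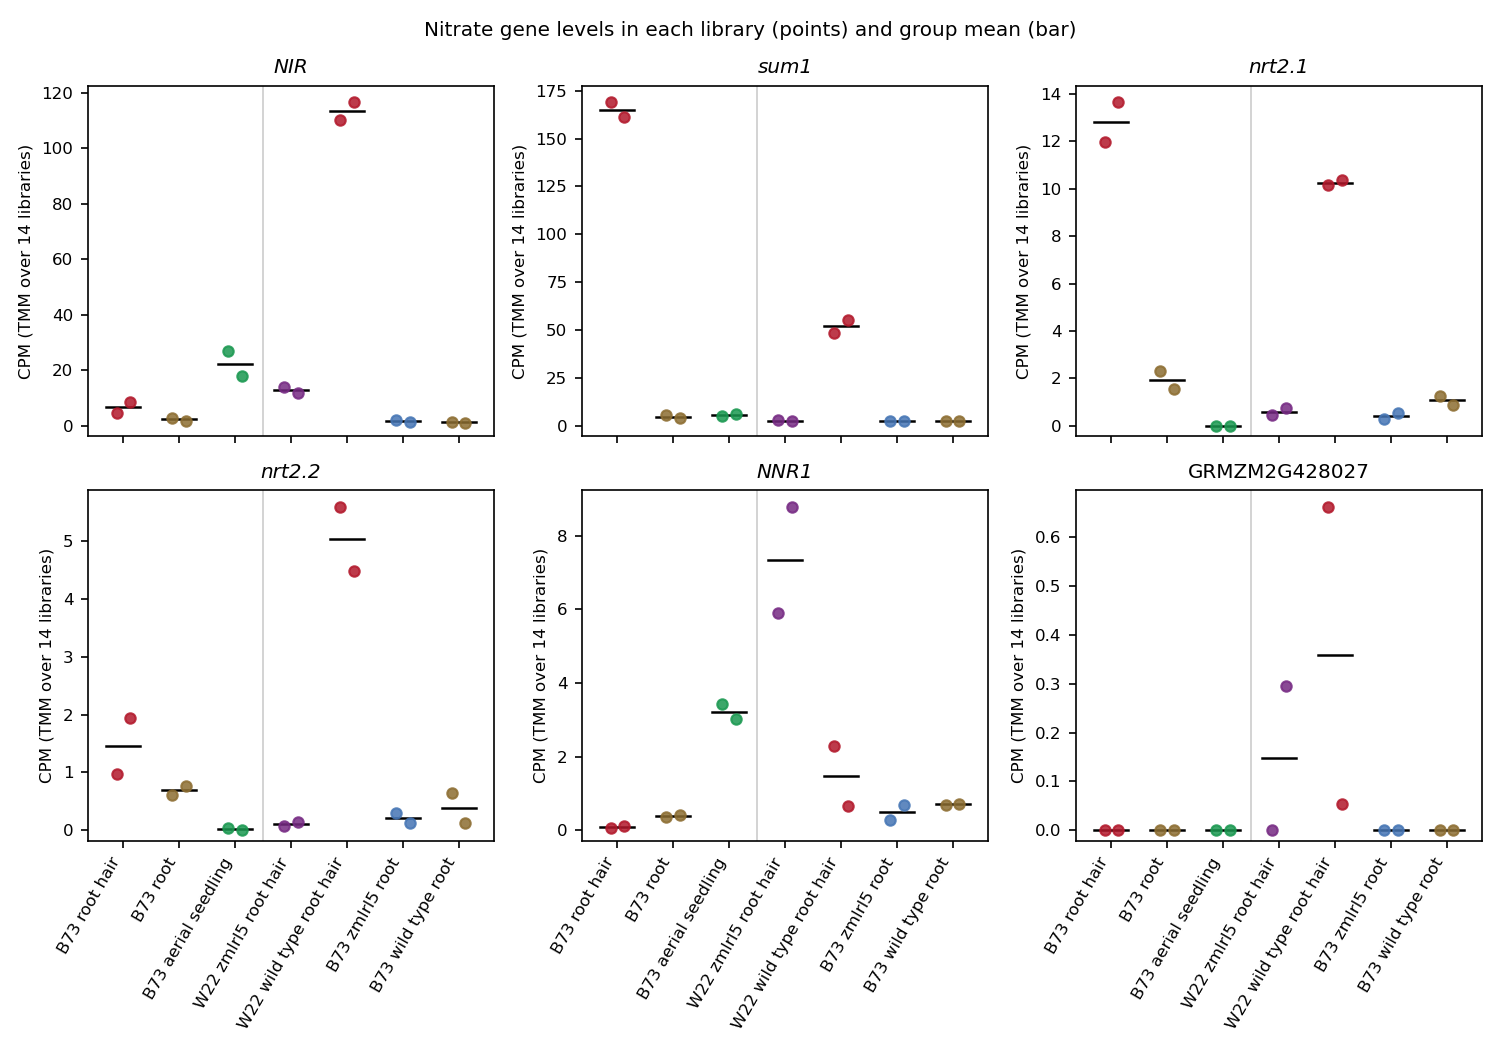
Level of each gene in each library (points, CPM scaled by TMM over all 14 libraries, linear axes from 0) with the group mean (bar), for the 7 groups; the grey line parts the library sets. NIR is highest in W22 wild type root hair at a mean of 113 CPM and sum1 in B73 root hair at a mean of 165 CPM, while NNR1 is highest in W22 zmlrl5 root hair.

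Root hair of B73 was set against root without its hairs. sum1 rose 35.2-fold and nrt2.1 rose 6.80-fold in root hair, NIR rose 2.90-fold, and NNR1 was lower at very few reads. Of the 5 genes that passed the filter on low counts, 3 were called higher and 1 lower at an adjusted p under 0.05 by edgeR's quasi-likelihood test. Among all 25551 genes tested 73.1% were called, 34.0% higher and 39.2% lower, so most genes differed between these tissues and a call by itself sets none of the 5 apart.

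The transporter genes come first in the pathway. nrt2.1 had 11.7 and 13.3 CPM in B73 root hair, against 2.24 and 1.51 CPM in B73 root. Both hair libraries lay above both root libraries, and the log2 fold change was 2.77 ± 0.34 (SE, n = 2 per group, edgeR adjusted p = 4.55e-09). nrt2.2 had 0.960 and 1.89 CPM in root hair, against 0.598 and 0.741 CPM in root. Its groups did not overlap either, as for 86.5% of all genes tested, but the difference of 1.06 ± 0.51 on the log2 scale did not pass (edgeR adjusted p = 0.0604). It passed without B73 root hair replicate 1 (log2 1.47, edgeR adjusted p = 0.0289) and fell to a log2 difference of 0.50 without replicate 2 of that group (edgeR adjusted p = 0.548), and without the TMM factor root hair averaged 0.923 CPM and root 0.961 CPM, the opposite order. The table of names places the entries of nrt2.1 and nrt2.2 side by side with 0 entries between them, and it lists the ID of nrt2.1 under both. Reads common to the 2 copies may have been lost or split, so the level of each is uncertain.

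The reduction genes followed no single pattern. sum1, the siroheme gene, had 166 and 157 CPM in B73 root hair, against 5.28 and 3.96 CPM in B73 root, a log2 fold change of 5.14 ± 0.27 (SE, edgeR adjusted p = 1.34e-18). NIR, which encodes the enzyme that carries siroheme, had 4.46 and 8.53 CPM in root hair, against 2.69 and 1.87 CPM in root. Both hair libraries were higher than both root libraries, but they differed from each other by more than the lower of them differed from the nearer root library. The log2 fold change was 1.54 ± 0.33 (edgeR adjusted p = 0.000105), and 1.0 without B73 root hair replicate 2. The sizes in this comparison depend on the TMM factors. Without them NIR had 3.06 and 5.36 CPM in root hair, against 3.66 and 2.79 CPM in root, and its groups overlapped. sum1 then had 114 and 98.5 CPM in root hair, against 7.17 and 5.93 CPM in root, and nrt2.1 had 8.05 and 8.35 CPM in root hair, against 3.05 and 2.26 CPM in root, so these remained apart by smaller ratios. NNR1, a nitrate reductase gene, had 3 counts over the 2 root hair libraries and 23 counts over the 2 root libraries. Its ratio of root to root hair was 4.56 (95% counting interval 1.38 to 23.7), and the call (edgeR adjusted p = 0.021) was lost without B73 root hair replicate 1 (edgeR adjusted p = 0.134) and without B73 root replicate 2 (edgeR adjusted p = 0.0922). GRMZM2G428027 had 0 counts in all 6 libraries of the B73 tissue set, where 3 counts correspond to 0.108 to 0.203 CPM of the library total.

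Other markers moved between these tissues. Of 19 tested shoot photosynthesis genes 14 were higher and 2 lower in root hair than in root. The 22 genes listed summed to 531 and 555 CPM in root hair, against 453 and 386 CPM in root. Most of these sums came from rcalm (421 CPM in root hair, 243 CPM in root) and psat1 (104 and 171 CPM). In aerial seedling rcalm averaged 142 CPM and psat1 302 CPM, so rcalm was higher in root hair than in shoot. Both were listed only because their names start with rca or psa. They may not be photosynthesis genes, so these sums do not measure photosynthesis in root hair or root. All 7 genes of dividing cells and all 3 tested secondary-wall cellulose synthase genes were lower, and RCP1 stood at 24.8 and 25.1 CPM in root hair. The part of these cell types in the nitrate results was not tested.

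Against the aerial seedling, B73 root hair had more sum1 and more of both transporter genes, and less NIR and NNR1. All 5 filtered genes were called, 3 higher and 2 lower, where 79.2% of all genes tested were called, 34.2% higher and 45.0% lower. The libraries of root hair and aerial seedling did not overlap in any of the 5, as for 88.1% of all genes tested. nrt2.1 had 0 counts in both aerial libraries and its root hair level was higher at least 172-fold, taking 3 counts over the aerial group as the floor. nrt2.2 had 50 counts in root hair and 1 in aerial seedling, a ratio of 58.5 (95% counting interval 10 to 2360). The transporter pair thus had next to no reads in the shoot samples.

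sum1 had 4.78 and 5.90 CPM in aerial seedling, and root hair exceeded it by 4.92 ± 0.27 on the log2 scale (SE, edgeR adjusted p = 2.01e-18). NIR went the other way, with 4.46 and 8.53 CPM in root hair against 25.8 and 17.3 CPM in aerial seedling, a log2 fold change of -1.73 ± 0.31 (edgeR adjusted p = 5.40e-06). NNR1 had 3 counts in root hair and 128 counts in aerial seedling, a ratio of aerial seedling to root hair of 36.5 (95% counting interval 12.2 to 179). The gene of the cofactor was thus called in the opposite direction to the gene of its enzyme. The shoot photosynthesis markers were lower in root hair for 18 of 19 tested genes, and summed to 3900 and 3960 CPM in aerial seedling.

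Root was also set against aerial seedling, with 4 of 5 genes called, 2 higher and 2 lower, where 60.6% of all genes tested were. The same 4 did not overlap between the groups, as for 79.1% of all genes tested. nrt2.1 was at least 24.1-fold higher in root. nrt2.2 had 41 counts in root and 1 in aerial seedling, a ratio of 28.5 (95% counting interval 4.84 to 1150). NIR was lower in root by -3.27 ± 0.33 on the log2 scale (SE, edgeR adjusted p = 1.19e-10) and NNR1 by -2.99 ± 0.47 (edgeR adjusted p = 9.99e-07). sum1 differed by -0.22 ± 0.26 (edgeR adjusted p = 0.472), and its root and aerial libraries overlapped. These comparisons share libraries with the 2 before, so their values are not separate support. With upper-quartile scaling the median log2 difference over the genes tested moved from -0.14 to -0.46 in root hair against root, from -0.40 to -0.51 in root hair against aerial seedling and from -0.02 to 0.20 in root against aerial seedling, and the 5 genes kept their calls and directions.

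**Figure D2:**
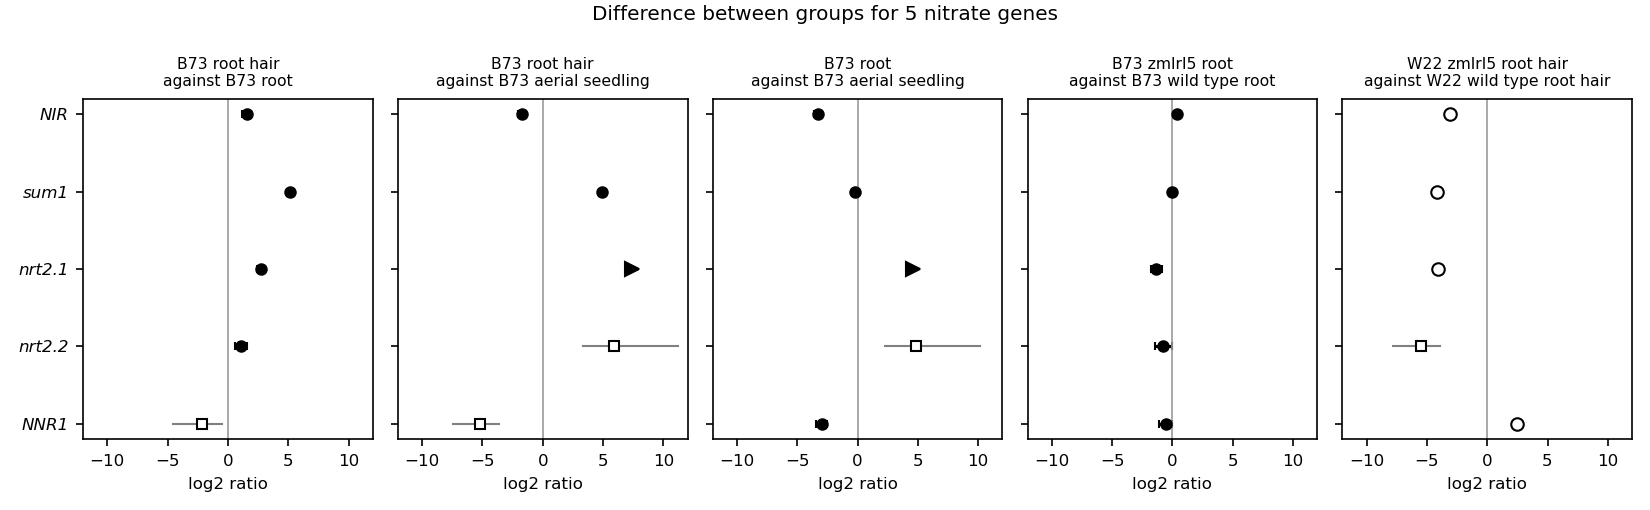
Log2 ratio of the first to the second group named above each panel. Filled circles are edgeR log2 fold changes ± SE, triangles are lower bounds against 3 counts, open squares are count ratios with 95% counting intervals where a group had 1 to 3 counts, and open circles are untested values; sum1 lies at 5.14 in the first panel and at -4.17 in the last.

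The relation of sum1 to NIR was read within each library, where depth and scaling cancel. Its absolute size holds the lengths of both transcripts, so only its change between libraries was compared. B73 root hair had 37.2 and 18.4 sum1 reads per NIR read, against 1.96 and 2.12 in B73 root, and the aerial seedling had 0.185 and 0.341. In the second set the ratio was 0.209 and 0.224 in W22 zmlrl5 root hair, against 0.442 and 0.475 in W22 wild type root hair. It was 1.22 and 1.73 in B73 zmlrl5 root, against 1.58 and 2.14 in B73 wild type root. B73 root of the first set and B73 wild type root of the second, which carry the same line and tissue labels, had overlapping ratios, whereas wild type hair of the 2 lines did not come close.

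**Figure D3:**
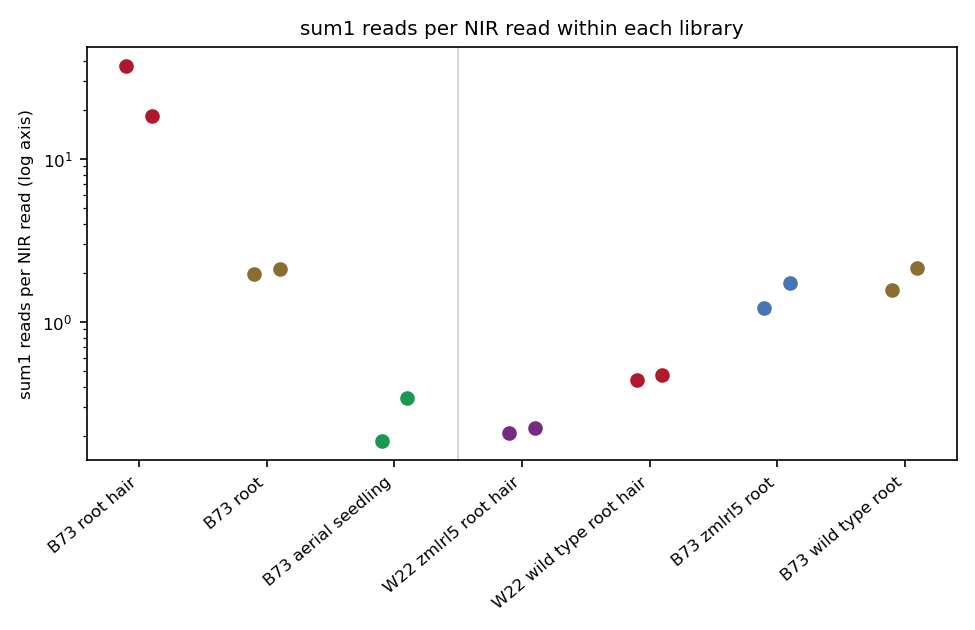
Reads of sum1 per read of NIR in each library (points, log axis) for the 7 groups. B73 root hair lies highest at 18.4 and 37.2, and W22 wild type root hair lies at 0.442 and 0.475.

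In W22, root hair of zmlrl5 plants was set against wild type root hair, which asks what changes in hair cells when zmlrl5 is reduced. By its name zmlrl5 is a maize LRL gene, of a bHLH family known in Arabidopsis for a role in root hair development. These values include those known when the genes were chosen. Both transporter genes and both genes of nitrite reduction were lower in zmlrl5, and NNR1 was higher. The share of all 25303 genes tested that was called was 22.5%, and the libraries of the 2 groups did not overlap for 53.9% of them. Nothing is read from either share about the chosen genes.

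nrt2.1 had 0.470 and 0.754 CPM in W22 zmlrl5 root hair, against 9.97 and 10.2 CPM in W22 wild type root hair, a log2 ratio of -4.04. nrt2.2 had 3 counts in zmlrl5 and 158 in wild type, a ratio of wild type to zmlrl5 of 45.7 (95% counting interval 15.4 to 224). NIR had 14.2 and 12.1 CPM in zmlrl5, against 108 and 115 CPM in wild type, a log2 ratio of -3.08. sum1 had 2.96 and 2.72 CPM in zmlrl5, against 47.8 and 54.4 CPM in wild type, a log2 ratio of -4.17. In these 4 genes each zmlrl5 library lay below each wild type library.

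NNR1 had 5.91 and 8.98 CPM in W22 zmlrl5 root hair, against 2.24 and 0.645 CPM in W22 wild type root hair, a log2 ratio of 2.43. Both zmlrl5 libraries were above both wild type libraries, and the wild type libraries differed widely from each other. The log2 ratio was 3.46 without W22 wild type root hair replicate 1 and 1.68 without replicate 2. GRMZM2G428027 had 0 and 4 counts in zmlrl5 and 9 and 1 counts in wild type, and these overlap. They were its only reads in the 14 libraries.

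Some markers also differed in these libraries. The 4 roothairless genes, none of them at 0, summed to 736 and 678 CPM in W22 zmlrl5 root hair and to 743 and 881 CPM in W22 wild type root hair, and 1 of them, rth6, was called lower. The 22 photosynthesis genes summed to 279 and 356 CPM in zmlrl5 and to 327 and 310 CPM in wild type, with 2 of them at 0 in zmlrl5 and 3 in wild type. Most of these sums came from rcalm, at 181 CPM in zmlrl5 and 229 CPM in wild type. That gene was listed by the start of its name only, so the sums do not measure photosynthesis. Of 15 tested photosynthesis genes 7 were called higher and 1 lower, with a median log2 ratio of 1.02. Genes of dividing cells summed to 75.9 and 75.7 CPM in zmlrl5 and to 76.6 and 83.3 CPM in wild type, and RCP1, called lower, had 73.4 and 77.8 CPM in zmlrl5 and 97.3 and 104 CPM in wild type. The part of these cells in the nitrate values was not tested.

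Root of zmlrl5 plants of B73 was set against wild type root. The genes were chosen with results of these data in view, so the p-values here may not be independent of that choice. None of the 5 filtered genes was called by edgeR's quasi-likelihood test, or by DESeq2, and 1 had an unadjusted p under 0.05. Of all 25303 genes tested 8.35% were called, 2114 genes. That count fell to 1133 without B73 wild type root replicate 1, to 1236 without replicate 2 of that group and to 1261 without B73 zmlrl5 root replicate 1.

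nrt2.1 came closest. It had 0.306 and 0.585 CPM in zmlrl5 root, against 1.35 and 0.933 CPM in wild type root, from 22 counts in zmlrl5 and 43 in wild type. The groups did not overlap, as for 50.2% of genes tested, and the log2 fold change was -1.33 ± 0.45 (SE, edgeR adjusted p = 0.0651). It passed with no filter on low counts (edgeR adjusted p = 0.046) and with only these 2 groups in the fit (edgeR adjusted p = 0.0493), and did not pass in the other 9 alternatives. In edgeR's quasi-likelihood test the adjusted p was 0.469 without B73 wild type root replicate 1 and 0.576 without B73 zmlrl5 root replicate 1, where the log2 fold change was -0.92.

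NIR had 2.1 and 1.54 CPM in zmlrl5 root, against 1.60 and 1.29 CPM in wild type root, and the log2 fold change was 0.37 ± 0.26 (SE, edgeR adjusted p = 0.534). sum1 had 2.56 and 2.67 CPM in zmlrl5, against 2.52 and 2.75 CPM in wild type, and the log2 fold change was -0.02 ± 0.22 (edgeR adjusted p = 0.994). Both overlapped between the groups. nrt2.2, with 11 counts in zmlrl5 and 14 in wild type, differed by -0.74 ± 0.74 on the log2 scale (edgeR adjusted p = 0.712). NNR1, with 25 counts in zmlrl5 and 29 in wild type, differed by -0.57 ± 0.57 (edgeR adjusted p = 0.712). Without B73 zmlrl5 root replicate 1 the NNR1 difference was -0.07, and without replicate 2 it was -1.26. The summed roothairless genes were 85.8 and 78.6 CPM in zmlrl5 root and 76.3 and 82.5 CPM in wild type root, with 1 of 4 lower, GRMZM2G436299, listed as rth6, which had no read in either zmlrl5 library. Photosynthesis markers were higher for 6 of 15 tested genes, and RCP1 had 0.0765 and 0.0418 CPM in zmlrl5 root. The part of these cells was not tested. Whether the effect of zmlrl5 differs between W22 root hair and B73 root was not tested, since line, allele and tissue all differ.

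Wild type hair of the lines was placed side by side, with levels scaled over all 14 libraries. NIR averaged 113 CPM in W22 wild type root hair and 6.66 CPM in B73 root hair, a ratio of 17.0. NNR1 averaged 1.47 CPM in W22 and 0.0876 CPM in B73, and its W22 libraries differed widely. sum1 went the other way with 52.0 CPM in W22 and 165 CPM in B73. nrt2.1 was closer, with a ratio of 0.8, while nrt2.2 averaged 5.04 CPM in W22 and 1.46 CPM in B73. The line and the library set cannot be told apart, and B73 root differed between the sets as well. The mean in B73 wild type root of the second set was 0.579 of that in B73 root of the first for NIR, 0.521 for sum1, 0.557 for nrt2.1, 0.553 for nrt2.2 and 1.80 for NNR1.

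The transporter copies shared their reads unevenly. nrt2.2 held 32.6% of the reads of the pair in W22 wild type root hair (exact Clopper-Pearson 95% interval 28.4 to 36.9) and 10.2% in B73 root hair (7.67 to 13.2). The libraries gave 35.5% and 30.3% in W22 and 7.56% and 12.5% in B73. In B73 root of the first set the share was 28.3% (21.1 to 36.3), and both of its libraries lay above both hair libraries of that line. In B73 wild type root of the second set the libraries gave 33.3% and 12.5%, the lower as in a B73 root hair library. B73 zmlrl5 root gave 50% and 17.6%. Reads are not independent molecules, and these intervals cover counting error only. Line and library set cannot be told apart here either. Reads common to the copies may have been lost or split, so the shares are uncertain.

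Ordered over the 7 groups, NIR was highest in W22 wild type root hair, followed by aerial seedling, W22 zmlrl5 root hair and B73 root hair, each apart from the next. The 3 root groups came last, with neighbours that overlapped. sum1 was highest in B73 root hair, then in W22 wild type root hair. Aerial seedling and B73 root, which overlapped, came next, and W22 zmlrl5 root hair and the 2 root groups of the second set were lowest, in an order that changed without TMM factors. nrt2.1 ran from B73 root hair through W22 wild type root hair, B73 root and B73 wild type root to W22 zmlrl5 root hair and B73 zmlrl5 root, which overlapped, and aerial seedling. nrt2.2 was highest in W22 wild type root hair, then in B73 root hair, and the groups from B73 root down to W22 zmlrl5 root hair overlapped with their neighbours. Without TMM factors B73 root came above B73 root hair for nrt2.2, and B73 zmlrl5 root above W22 zmlrl5 root hair for nrt2.1. NNR1 was highest in W22 zmlrl5 root hair, then in aerial seedling, and lowest in B73 root hair.

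Over the means of the 7 groups, which share libraries in scaling, Pearson's r of log2 CPM was 0.926 between nrt2.1 and nrt2.2, 0.777 between sum1 and nrt2.1, and 0.490 between NIR and sum1. NNR1 had -0.467 with sum1 and 0.467 with NIR. Among 27316 genes that passed the filter over all libraries, GRMZM2G070323 and NAC76 (GRMZM2G316840) had the patterns most like NIR, at 0.984 and 0.980. NAC76, by its name a NAC transcription factor gene, averaged 3.25 CPM in W22 zmlrl5 root hair and 10.1 CPM in W22 wild type root hair, and 6.53 CPM in aerial seedling. For sum1 the closest was GRMZM2G522468 at 0.980, and for NNR1 GRMZM2G126026 at 0.974. Pearson's r does not reflect the size of a change. GRMZM2G070323 averaged 18.6 CPM in W22 zmlrl5 root hair and 25.4 CPM in W22 wild type root hair, where NIR averaged 13.0 and 113 CPM. Among 27316 genes over 7 means, some high values of r can arise without any relation. These values describe the 7 groups only.

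The rest of nitrogen metabolism was read from lists of names, which matched 36 IDs beside the 6 genes. They cover the named part of each family, and some names do not mean what a list intends. A1, also called FNR, is an anthocyanin gene, bt1 and bt2 are starch genes, one ID named Asn1 is also called nac4, and the function of CNX does not follow from its name. In B73 root hair against root, 13 of 30 tested genes were higher and 10 lower, where 34.0% of all genes were higher and 39.2% lower, and their median log2 fold change was 0.61 beside -0.14 over all genes. Against aerial seedling 13 were higher and 14 lower, where 34.2% of all genes were higher and 45.0% lower, and the medians were -0.28 and -0.40. In root against aerial seedling 7 were higher and 15 lower (medians -0.60 and -0.02), where 28.5% of all genes were higher and 32.0% lower.

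Nitrate transport held 5 IDs, of which 2, both named Nrt1.1, had no reads in any group, and 3 were tested. NAR2.1 (GRMZM2G179294), by its name the partner protein of NRT2 carriers, had 1079 and 1386 CPM in B73 root hair, against 57.1 and 42.1 CPM in B73 root. The log2 fold change was 4.64 ± 0.25 (SE, edgeR adjusted p = 2.81e-18), and in aerial seedling the gene had 0.857 and 0.843 CPM. In W22 it stood at 426 and 444 CPM in zmlrl5 root hair and at 388 and 370 CPM in wild type root hair, a log2 ratio of 0.20, unlike the ratios of nrt2.1 and nrt2.2 in the same libraries. In B73 zmlrl5 root it had 55.9 and 45.5 CPM, against 65.4 and 74.5 CPM in wild type root, and fell by 0.47 ± 0.09 on the log2 scale (edgeR adjusted p = 0.000565). NRT1.2, a nitrate carrier gene of another family by its name, was lower in B73 root hair than in root by -1.87 ± 0.24 (edgeR adjusted p = 1.54e-08). NAR2.2 was higher in root hair at low levels by 1.32 ± 0.59 (edgeR adjusted p = 0.0427).

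Of the reduction list 5 of 6 IDs were tested, 1 higher and 2 lower in B73 root hair than in root. Of all genes 34.0% were higher and 39.2% lower there. NAR (GRMZM5G878558), a nitrate reductase gene by its names, had 0 counts in root hair and 8.44 and 7.48 CPM in aerial seedling, at least 93.3-fold lower in root hair. The sulfite reductase gene sir, whose enzyme also carries siroheme, had 89.4 and 75.6 CPM in root hair, against 121 and 132 CPM in root, a log2 fold change of -0.62 ± 0.22 (edgeR adjusted p = 0.0112). In B73 zmlrl5 root sir fell by 0.65 ± 0.09 on the log2 scale (edgeR adjusted p = 2.90e-06). In W22 sir went the other way, with a log2 ratio of 0.50. It had 38.8 and 41.0 CPM in zmlrl5 root hair, against 25.9 and 30.2 CPM in wild type root hair. One ID named CNX5 (GRMZM2G160842), a gene of molybdenum cofactor synthesis by its name, was higher in B73 root hair than in root. In W22 zmlrl5 against wild type root hair its log2 ratio was -0.53. Of the 5 tested IDs, 1 was called higher in W22 zmlrl5 root hair (sir) and 1 lower (this CNX5).

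Ammonium assimilation was higher for 6 and lower for 4 of 11 tested IDs in B73 root hair against root, where 73.1% of all genes were called. Glutamine synthetase genes were 5 of the 6 higher and 2 of the 4 lower. gln1 (GRMZM2G098290) had 103 and 135 CPM in root hair, against 0.697 and 0.844 CPM in root, a log2 fold change of 7.24 ± 0.33 (edgeR adjusted p = 2.00e-20). GLN6 was higher by 3.50 ± 0.24, gln2 was lower by -6.34 ± 0.31, and asn2, an asparagine synthetase gene by its name, was lower by -4.96 ± 0.49. A second ID of gln1, GRMZM5G885867, was lower by -3.00. In W22, gln1 (GRMZM2G098290) had 11.7 and 9.73 CPM in zmlrl5 root hair, against 48.4 and 54.9 CPM in wild type root hair, a log2 ratio of -2.27, and gdh1, a glutamate dehydrogenase gene by its name, had 47.1 and 44.6 CPM in zmlrl5, against 94.5 and 126 CPM in wild type, a log2 ratio of -1.27. asn1 (GRMZM2G074589) had a log2 ratio of -0.71, gln3 of 0.89 and GLN6 of 0.04. In B73 zmlrl5 root asn2 was higher by 0.85 ± 0.12 (edgeR adjusted p = 6.62e-06).

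Reductant supply was higher for 4 and lower for 2 of 9 in B73 root hair against root. Of all genes 34.0% were higher and 39.2% lower there. A1, an anthocyanin gene, was among the lower. FDX6, a ferredoxin gene by its name, had 277 and 369 CPM in root hair, against 23.1 and 18.9 CPM in root, a log2 fold change of 3.94 ± 0.25 (edgeR adjusted p = 1.31e-16). fnr1, by its name a ferredoxin-NADP reductase gene, was higher by 2.47 ± 0.22 (edgeR adjusted p = 2.85e-12). FDX1, also a ferredoxin gene by its name, was higher by 2.21 at low levels. It had 0.621 and 0.802 CPM in root hair and 0.0498 and 0.205 CPM in root, against 344 and 371 CPM in aerial seedling. In W22, FDX6 had 32.6 and 32.4 CPM in zmlrl5 root hair, against 91.5 and 82.0 CPM in wild type root hair, a log2 ratio of -1.41, and fnr1 had a log2 ratio of -1.0. Other ferredoxin genes were higher in zmlrl5, fdx2 with 0.873 and 3.09 CPM in zmlrl5 against 0.722 and 0.323 CPM in wild type (log2 ratio 1.95) and fdx3 with a log2 ratio of 0.29. Nitrate signalling held 4 IDs, of which only bt2 and TCP20 were tested, and bt2 was lower in root hair than in root.

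Across all lists in W22 zmlrl5 against wild type root hair, 6 of 29 tested genes were called higher and 8 lower, beside 10.1% and 12.4% of all genes, and the median log2 ratio was 0.02. In B73 zmlrl5 against wild type root 3 of 29 were higher and 5 lower, beside 4.27% and 4.09% of all genes, and the median was -0.04. The lists were chosen with earlier results of these data known. These counts are therefore a description, and nothing is read from them about nitrogen genes as a whole.

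**Figure D4:**
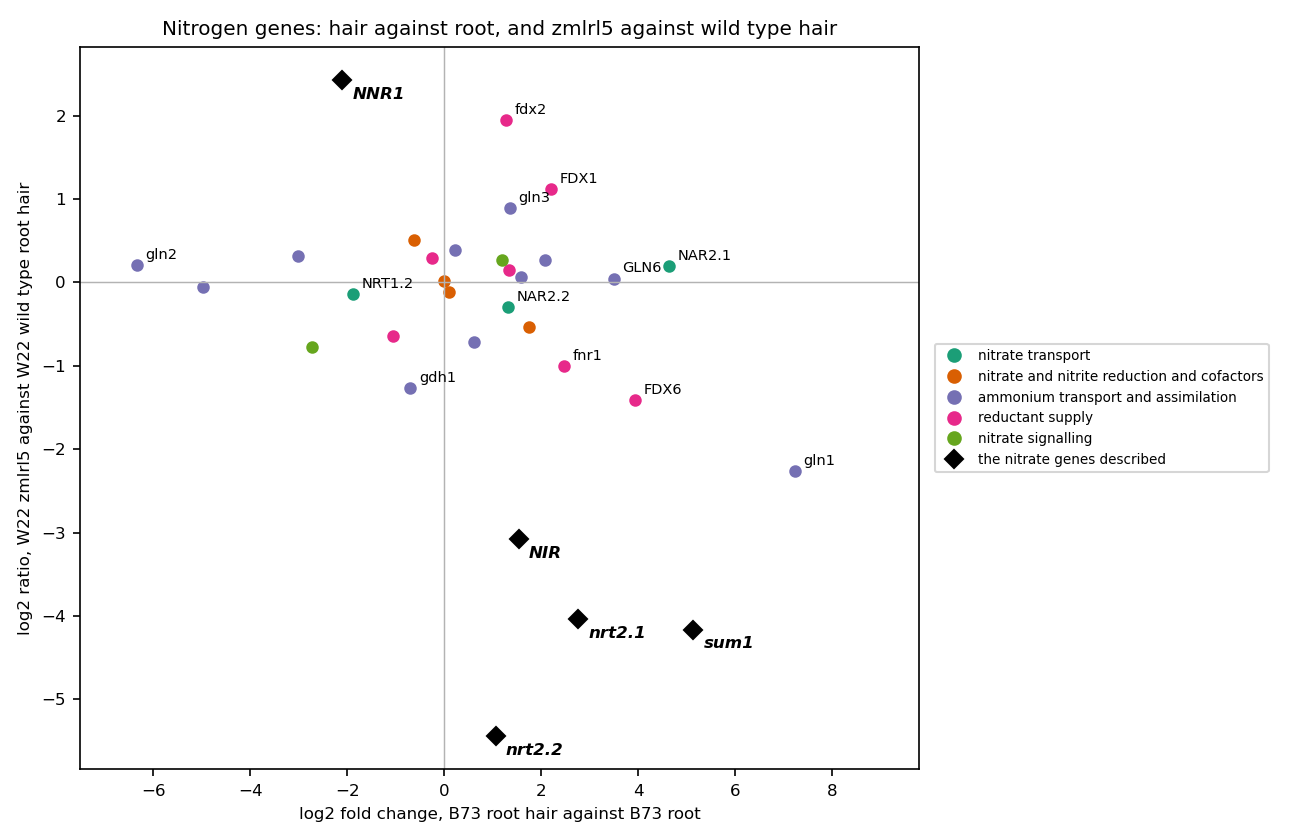
Log2 fold change in B73 root hair against B73 root (x axis) and log2 ratio in W22 zmlrl5 against W22 wild type root hair (y axis) for 27 genes of the nitrogen lists (circles, coloured by list) and 5 of the nitrate genes (diamonds); genes with a group at 0 counts are left out. nrt2.1, sum1 and NIR lie between -4.17 and -3.08 on the y axis, and NAR2.1, at 4.64 on the x axis, lies at 0.20.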

How the data were processed

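The deposited values are counts of reads for each gene ID, 1 file per library, whole numbers that the authors left without normalization. TopHat2, HTSeq and DESeq are named, per the submitters' processing notes. Versions, genome build and strand setting: not given in the sources used here. HTSeq's summary entries, present in the tissue set, stayed out (3.58% to 6.71% of reads outside genes, 1.91% to 2.58% ambiguous). Each set was filtered with filterByExpr (minimum count 10, minimum total 15), scaled by TMM and fitted with edgeR 4.0.16 in R 4.3.3 by quasi-likelihood with group means, two-sided. p-values were Benjamini-Hochberg adjusted over all genes tested, and a gene was called under 0.05. An SE is the size of the log2 fold change divided by the square root of F. 3 counts, equal to 0.108 to 0.243 CPM per library, served as the floor. Floors and intervals cover counting error only. p-values measure the spread between libraries, which may be technical. The fit was tested on simulated data, with the same spread for all genes and equal means in all groups apart from the changed genes. In root hair against root 99 genes were changed by 1 and 98 by 2, among 24883 tested. Of simulated log2 changes of 1, it recovered 34.3% in root hair against root and 77.3% in B73 zmlrl5 against wild type root. For changes of 2 the shares were 89.8% and 94.8%. Among unchanged genes 0.0243% and 0.0623% were called. In the data 73.1% of genes were called in root hair against root, which alters the adjustment of p-values. The simulated shares therefore do not carry over to that comparison. Real differences near 1 on the log2 scale may still go uncalled.

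Names came from the RefSeq table, which matched 18997 of 39305 IDs. The genes and lists were chosen with earlier results of these data known. The text names the 6 genes, up to 4 called genes of each list with the largest changes (all of a list with 4 or fewer), the genes of the most similar pattern and the markers. GRMZM5G885867 and, in W22, GLN6, fdx3 and NAR2.1 fall outside this and were named after their values were seen. Sequences were not used here. Alternatives were other scalings, no filter, DESeq2 1.42.0, other sets of libraries, each replicate left out, and a replicate block.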

Additional observations from a re-analysis of the deposited data

Results flagged for a closer look

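The nitrate reductase gene NNR1 stood out because its zmlrl5 values lay on opposite sides of wild type in the 2 materials. Both zmlrl5 libraries were above both wild type libraries in W22 root hair (log2 ratio 2.43), and both were below in B73 root. The log2 fold change in root was -0.57 (edgeR adjusted p = 0.712), from 25 counts in zmlrl5 and 29 in wild type. The nearest root libraries had 0.710 CPM in zmlrl5 and 0.737 CPM in wild type. Libraries did not overlap for 53.9% of all genes tested in W22 root hair and 50.2% in B73 root, so lack of overlap was common. Without B73 zmlrl5 root replicate 1 the root value was -0.07, and without replicate 2 it was -1.26. The hair value was 3.46 without W22 wild type root hair replicate 1 and 1.68 without replicate 2. The difference between the materials was not tested.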

How the results depend on the processing

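Of 219 tested log2 fold changes of the 5 genes under the alternatives, 211 kept their direction and side of the threshold. Of 55 untested ratios in W22 zmlrl5 against wild type root hair, 51 moved by less than the spread between libraries and 4 by more, all with a replicate left out. These were NIR at -3.26, sum1 at -4.31 and -4.30 and nrt2.2 at -6.10 on the log2 scale. 3 of the tested values reversed, all of them small and uncalled differences in B73 zmlrl5 against wild type root. nrt2.2 turned to 0.69 without B73 wild type root replicate 1, and sum1 to 0.06 without replicate 2 of that group and to 0.02 without B73 zmlrl5 root replicate 1. With a replicate left out nrt2.2 ran from -1.59 to 0.69 and sum1 from -0.0705 to 0.0633. In that comparison the count of the 5 genes called became 1 (nrt2.1) with no filter and with only the 2 groups in the fit. The count of all genes called there, 2114, became 3701 with only the 2 groups in the fit, 955 with all 14 libraries in the fit and 1133 to 1453 with a replicate left out. In W22 zmlrl5 against wild type root hair 5703 became 3234 with all 14 libraries in the fit. The cause was not tested. Leaving out a replicate in the tissue set gave 3 to 4 of the 5 genes called in root hair against root. The replicate numbers are not known to pair libraries, and the deviations of same-numbered libraries correlated at -0.19 to -0.01. With the replicate number as a block, the same numbers of the 5 genes were called, 4, 5, 4 and 0 in the 4 tested comparisons. The block gave 1793 genes called in B73 zmlrl5 root and 5155 in W22 zmlrl5 root hair. Of 84 group levels, 22 moved by more than the spread of their libraries, mostly without TMM factors. Low counts limit nrt2.2, NNR1 and GRMZM2G428027.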
